A study of Mus musculus with 13 samples.

Results

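The comparison is of 8 libraries, 3 with the token Lin in their names (Lin 3, Lin 4 and Lin A) and 5 with the token plus (plus 2, plus 4, plus A, plus B and plus C), out of 13 in the series. They were chosen by library name alone. All 8 belong to the series of library names that end in L002. A ninth library of that series, D, holds neither token and was left out, as were 4 libraries of a second name series, XY9274. RNA was taken from cells sorted by flow cytometry out of tissue around tibia implants of mice, and polyA RNA was sequenced. Lin 3, Lin 4, plus 2 and plus 4 came from bone around implants labelled Pressfit. Lin A, plus A, plus B and plus C came from fibrous tissue around implants labelled PMMA. Every one of the 8 carries LepR+ in its title, the Lin-named libraries included, and the series title describes the cells as lineage-negative and leptin receptor positive. The labels do not say what the token Lin stands for. Genotype, strain, age and time after implantation are not given in the labels, and neither is whether libraries came from separate animals. For this reason the spread behind every p-value is that among libraries, and it may be technical only.

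LepR+ cells are mesenchymal stromal cells that line the sinusoids of bone marrow. They secrete the chemokine CXCL12 and the cytokine SCF (stem cell factor, from Kitl), which hold blood stem cells in the marrow, and they can give rise to bone and fat cells. Such cells are usually purified by removing cells that carry antigens of mature blood lineages and by keeping those that bind an antibody to the leptin receptor. Erythroid precursors and B cells are abundant neighbours of these cells in marrow.

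The Lin-named libraries held between 16162321 and 21097187 counts and the plus-named ones between 22409369 and 29600792. Every Lin-named library was thus shallower than every plus-named one. Between 14644 and 15081 genes were detected in the Lin-named libraries and between 15074 and 17410 in the plus-named ones. Fewer genes detected, and genes without a read in Lin, cannot be told apart from this difference in depth, whose part was not tested. Spearman correlations over genes were 0.872 to 0.875 among the Lin-named, 0.826 to 0.939 among the plus-named and 0.737 to 0.880 between the 2 groups, so no 2 libraries were copies of each other. Haemoglobin genes took 27.9%, 35.3% and 19.97% of the counts in Lin 3, Lin 4 and Lin A. They took 3.10%, 6.93%, 2.77%, 5.72% and 7.47% in plus 2, plus 4, plus A, plus B and plus C. Each of these shares lies within 0.0233 percentage points of the bounds of its exact Clopper-Pearson 95% interval, which covers counting error only. The 2 groups thus differed in blood cell RNA beside every gene described below, and the part of that difference in any single result was not tested. In bulk RNA, fewer cells of a type and less RNA per cell cannot be told apart.

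Lepr, the gene of the receptor used for the sort, was close to 0 in every Lin-named library and high in every plus-named one. Its normalised CPM (counts scaled to library size, adjusted by the trimmed mean of M values, TMM) were 0.597, 0.558 and 0.689 in Lin 3, Lin 4 and Lin A, from 10, 6 and 12 reads. In plus 2, plus 4, plus A, plus B and plus C the Lepr CPM were 44.7, 133, 761, 396 and 183. Lepr (ENSMUSG00000057722, chromosome 4, 101717404 to 101815352, plus strand, mm10) thus averaged 0.614 ± 0.0671 (SD, n = 3) against 303.5 ± 286.4 CPM (n = 5). The log2 fold change of Lin over plus was -8.15 (standard error, SE, 0.92, edgeR adjusted p = 0.0129). At the level of RNA, Lepr therefore goes against the LepR+ title of the libraries labelled Lin. That title describes the sorted cells, and the receptor protein was not measured here.

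Cxcl12 (chromosome 6, 117168535 to 117181367, plus strand), the chemokine that retains blood stem cells, separated the same libraries. Its CPM were 5.07, 8.0 and 15.3 in Lin 3, Lin 4 and Lin A, and 601, 941, 7537, 3201 and 1333 in plus 2, plus 4, plus A, plus B and plus C. The groups did not overlap, and Cxcl12 fell by 7.36 on the log2 scale (SE 0.80, edgeR adjusted p = 0.0122). Both genes passed in all 8 fits that left out 1 library. Both missed the threshold with limma-voom, at an adjusted p of 0.145 for Lepr and 0.0961 for Cxcl12. A 2-sided exact permutation test of 5 library measures, over 56 ways to pick 3 of 8 libraries, gave p = 0.0357 for Lepr, for Cxcl12 and for the haemoglobin share (adjusted p = 0.0595 for each). That is the smallest p such a test can give, and within tissue the smallest is 0.0833. The number of genes detected had p = 0.0714 (exact permutation, adjusted p = 0.0893), and the share of counts from neutrophil genes p = 0.286.

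**Figure D1:**
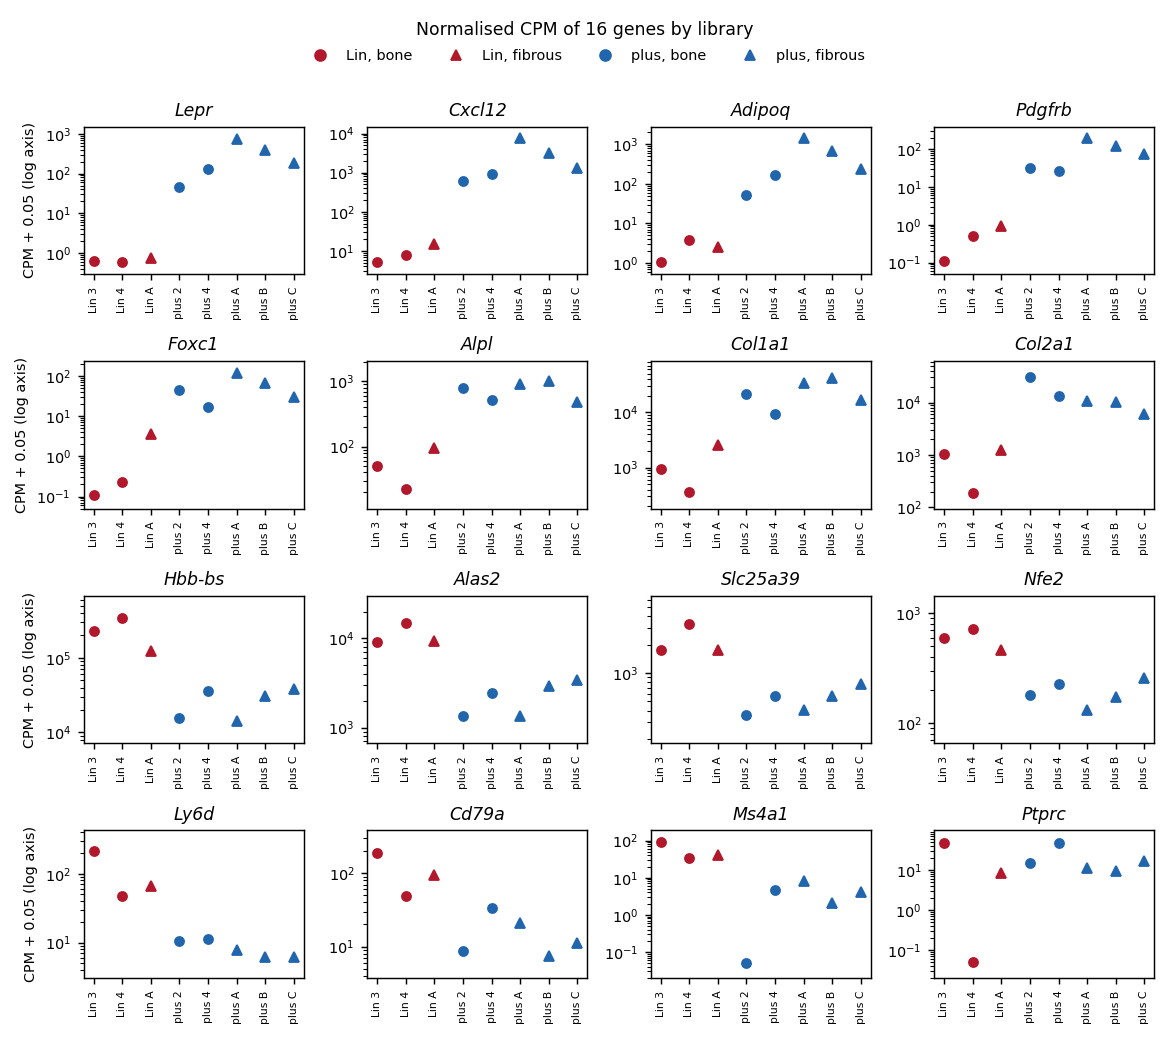
Normalised CPM of 16 genes in each library, with 0.05 added and on a log axis; each point is 1 library, red for Lin and blue for plus, circles for bone and triangles for fibrous tissue. The 3 Lin-named libraries lie between 0.558 and 0.689 CPM for Lepr, while Ptprc overlaps between the groups.

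Across all genes the difference was lopsided, with a smaller set of moderately higher and a larger set of far lower genes in the Lin-named libraries. Of 13450 genes tested with tissue as a covariate, 1097 passed an adjusted p of 0.05 by edgeR's quasi-likelihood test. Of these, 424 (3.15% of those tested) were higher and 673 (5.00%) lower in Lin. The balance turned with limma-voom, which called 333 higher and 233 lower. The median log2 fold change was 1.09 among the higher and -4.03 among the lower genes, while it was -0.22 over all genes tested. Genes beyond 8-fold numbered 12 higher and 421 lower. The mean Lin value was under 1 CPM for 267 of the lower genes, and 45 had no read at all in the 3 Lin-named libraries.

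The number of calls depended on single libraries. It was 144 without Lin 3, 144 without Lin 4, 368 without plus 2, 470 without plus 4, 264 without plus A and 138 without plus B. Without Lin A it was 851 (247 higher), and without plus C 992. The common biological coefficient of variation was 0.843, a large spread between libraries of a group. Of the 100 genes called and named here, all 100 kept their sign in each of the 8 fits with 1 library left out, 25 were called in all 8 and 4 in none. Of the same 100, limma-voom did not call 44 (adjusted p from 0.0502 to 0.218), Ly6d, Pdgfrb and Snai2 among them, and DESeq2 did not call 2. None of the 1097 calls changed sign in any alternative setting in which it was tested.

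**Figure D2:**
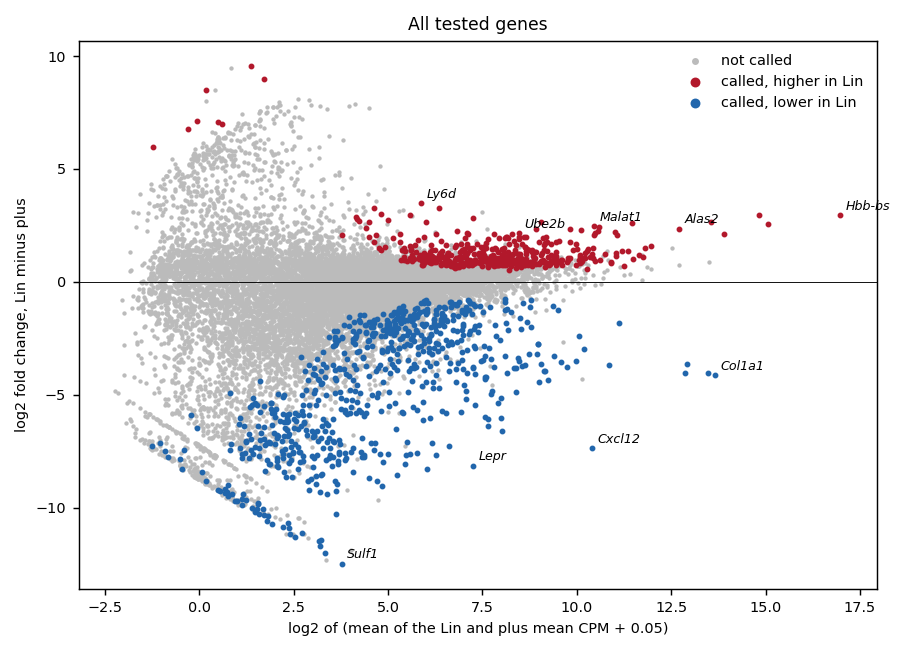
Log2 fold change of Lin over plus against the log2 of mean CPM for all 13450 genes tested; red points are the 424 called higher and blue the 673 called lower in Lin, grey points were not called. Most red points lie below a log2 fold change of 3, while blue points reach below -10, where genes had few or no reads in Lin and the fitted value depends on the prior count.

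Niche factors and surface proteins of marrow stroma were far lower in the Lin-named libraries. All 22 genes of the marrow stromal list had a fold change below 0, with a median of -5.71, and 12 passed (background 5.00%), Lepr and Cxcl12 among them. For 16 of the 22, every Lin library lay below every plus library (background 13.6%). The summed level of the list was 260.9 to 371.5 CPM in Lin and 1799 to 19746 CPM in plus. The 12 calls became 7 without plus B, and limma-voom called 0 of the 22. Members of this and of the other lists were chosen with earlier results of these data known. List counts set beside the background are therefore descriptions and no independent tests.

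Pdgfrb, a receptor for platelet-derived growth factor, stood at 0.0597, 0.465 and 0.861 CPM in Lin 3, Lin 4 and Lin A. In plus 2, 4, A, B and C Pdgfrb was at 31.2, 26.5, 198, 124 and 74.6 CPM (log2 fold change -7.10, SE 0.66, edgeR adjusted p = 0.0110). Lpl, lipoprotein lipase, was at 1.55, 1.02 and 11.2 CPM in Lin and between 99.4 and 980 CPM in plus (-6.07, SE 0.61). Esm1, which encodes the secreted proteoglycan endocan, was at most 0.558 CPM in Lin and at least 52.7 CPM in plus. Igfbp5, a binding protein for insulin-like growth factors, and Serping1, the C1 inhibitor of complement, fell by 5.73 (SE 0.61) and 6.02 (SE 0.70) on the log2 scale. These 5 genes were called in all 8 fits with 1 library left out.

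Adipoq, the adipokine gene that marks marrow stroma with fat potential, was at 1.01, 3.81 and 2.47 CPM in Lin and between 51.3 and 1415 CPM in plus (log2 fold change -6.60, SE 1.15, edgeR adjusted p = 0.0237). Adipoq was called in 4 of the 8 fits, those without Lin A, plus 2, plus A or plus C. Of 11 tested genes of the adipocyte lineage, Lpl and Adipoq passed as lower (background 5.00%) and Cd36 as higher (background 3.15%). The other 8 did not pass, and the list median was -0.70, with 3 genes above 0. Gas6, a ligand of TAM receptors, fell by 5.15 (SE 1.07) and was called in 3 of 8 fits. Vcam1, an adhesion molecule that macrophages also carry, was at 0.836, 11.3 and 2.07 CPM in Lin against 76.2 to 595 CPM in plus, and was called in 1 of 8 fits, that without Lin 4. Kitl, the gene of SCF, did not pass (edgeR adjusted p = 0.0636): it was at 0.119 to 0.186 CPM in Lin, at 0.113 CPM in plus 2 and at 14.4 to 90.4 CPM in the other plus libraries. Il7, a lymphocyte growth factor, had no read in the Lin libraries or in plus 2, with 2.70 to 33.7 CPM in the other plus libraries (adjusted p = 0.113). Pdgfra, the other PDGF receptor, overlapped: Lin 3 held 6.39 CPM and Lin 4 and Lin A no read, while plus 4 held 0.193 CPM and plus A 50.1 CPM (adjusted p = 0.806).

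Transcription factors of limb stroma had a median of -3.99 over 16 tested genes, all below 0, and 5 passed (background 5.00%). Snai2, a zinc finger repressor of mesenchymal cells, was at 0.179, 0.279 and 0.172 CPM in Lin and 21.9 to 129 CPM in plus (log2 fold change -7.98, SE 0.84, edgeR adjusted p = 0.0119). Foxc1, which maintains the niche function of these cells, was at 0.0597 and 0.186 CPM in Lin 3 and Lin 4, at 3.56 CPM in Lin A and at 16.8 to 116 CPM in plus (-5.72, SE 1.04). Of the positional Hox genes, Hoxa10 and Hoxc10 had 1 read each over the 3 Lin libraries. The ratio of plus over Lin was 995 for Hoxa10, with a 95% counting interval of 178 to 39305, and 261 for Hoxc10 (46.7 to 10320). Hoxc9 was the fifth gene to pass (-5.37, SE 1.03). Ebf1 (adjusted p = 0.217), which B cells also express, and the limb factor Prrx1 (adjusted p = 0.342) did not pass. Ebf1 was at 4.09 to 7.40 CPM in Lin and 6.28 to 40.0 CPM in plus. The count of 5 was 1 without Lin 3, without Lin 4 or without plus B, 3 without plus 2 and 2 without plus A, and DESeq2 called 8 and limma-voom 2.

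Bone-forming genes were detected in the Lin-named libraries at a fraction of the plus level. Of 20 osteoblast genes, all below 0 with a median of -3.69, 14 passed (background 5.00%). Alpl, the alkaline phosphatase of mineralising cells, was at 49.8, 22.2 and 93.5 CPM in Lin 3, Lin 4 and Lin A and at 786, 514, 910, 1025 and 478 CPM in plus 2, 4, A, B and C. Alpl did not overlap (55.2 ± 35.9 CPM, SD, n = 3, against 742.7 ± 240.7 CPM, n = 5, log2 fold change -3.69, SE 0.47, edgeR adjusted p = 0.0147), and it passed in all 8 fits with 1 library left out, as did Tmem119, a membrane protein of osteoblasts (-3.03, SE 0.36). Ibsp, bone sialoprotein, was at 146, 94.9 and 582 CPM in Lin and 2024 to 4557 CPM in plus (-3.68, SE 0.53). Pth1r, the parathyroid hormone receptor, fell by 3.28 (SE 0.47). Smaller changes were found for Bglap, osteocalcin (-2.07, SE 0.38), and Spp1, osteopontin (-1.80, SE 0.40), each called in 1 of 8 fits, that without plus C. Runx2 and Sp7, the transcription factors that start the osteoblast programme, did not pass (edgeR adjusted p = 0.162 and 0.0672). Runx2 was at 0.0597 CPM in Lin 3, had no read in Lin 4 and stood at 9.01 CPM in Lin A, above the 5.99 CPM of plus 4. The count of 14 was 2, 5, 9, 8 and 6 without Lin 3, Lin 4, plus 4, plus A and plus B, and 9 with limma-voom.

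Of 6 osteocyte genes 1 passed, lower in Lin (background 5.00%). This was Fbln7, a fibulin (-2.39, SE 0.57, edgeR adjusted p = 0.0461), called only without plus C among the fits with 1 library left out. Dmp1, a matrix protein of osteocytes, was at 5.73, 0.465 and 0.0574 CPM in Lin and 24.2 to 134 CPM in plus (adjusted p = 0.0549). Phex, a peptidase that controls phosphate, had no read in Lin and at most 5.45 CPM in plus (adjusted p = 0.0694).

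Cartilage genes were lower in the Lin-named libraries as well. Of 20 chondrocyte genes, 14 passed, all lower (background 5.00%), and for 18 every Lin library lay below every plus library (background 13.6%), with a median of -3.51. Col11a1 (chromosome 3, 114030540 to 114220718, plus strand), a minor chain of cartilage fibrils, was at 19.3, 15.2 and 13.3 CPM in Lin and at 770, 476, 317, 298 and 217 CPM in plus 2, 4, A, B and C. Its means were 15.9 ± 3.11 (SD, n = 3) and 415.5 ± 219.1 CPM (n = 5), with a log2 fold change of -4.82 (SE 0.32), and it had the smallest adjusted p of all genes, 0.00436, together with Enpp2. Col2a1, the main cartilage collagen, was at 1037, 189 and 1259 CPM in Lin and between 5960 (plus C) and 30679 CPM (plus 2) in plus (-4.04, SE 0.83), and it was called in 2 of 8 fits. Sox9, the transcription factor of cartilage, fell by 3.73 (SE 0.57), Acan, aggrecan, by 3.96 (SE 0.76) and Chad, chondroadherin, by 3.78 (SE 0.57). Prg4, the lubricin gene of the joint surface (adjusted p = 0.123), and Ihh, the hedgehog ligand of hypertrophic cartilage (adjusted p = 0.0967), did not pass. The count of 14 was 1, 5, 6, 8, 4 and 1 without Lin 3, Lin 4, plus 2, plus 4, plus A and plus B.

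Fibrillar matrix genes, the bulk of what stromal cells secrete, took 0.299%, 0.0968% and 0.826% of the counts in Lin 3, Lin 4 and Lin A. In plus 2, 4, A, B and C the share was 9.14%, 4.52%, 10.9%, 11.1% and 5.20%. All 23 tested genes were below 0, with a median of -4.12, and 16 passed (background 5.00%). Col1a1, a chain of type I collagen, was at 935, 360 and 2530 CPM in Lin and at 21043, 9176, 33957, 42048 and 16495 CPM in plus 2, 4, A, B and C (-4.12, SE 0.58, edgeR adjusted p = 0.0161), and Col1a2, its partner chain, fell by 4.04 (SE 0.54). Reads of type I collagen were thus present in every library labelled Lin, though far fewer. Col12a1, a fibril-associated collagen, was at 1.07, 0.372 and 3.04 CPM in Lin and 41.0 to 121 CPM in plus, and Lox, the enzyme that crosslinks collagen, was at 0.537, 2.05 and 11.5 CPM against 99.6 to 377 CPM. Col1a1, Col1a2, Col12a1 and Lox were each called in 7 of 8 fits. Fn1, fibronectin, fell by 4.37 (SE 0.78), called in 4 of 8 fits, and Postn, periostin, fell by 5.46 (SE 1.11), called in 2. Dcn, decorin (adjusted p = 0.0517), and Col3a1 (adjusted p = 0.0784) did not pass, although Dcn stood at 43.8 to 353 CPM in Lin and 681 to 1995 CPM in plus. The count of 16 was 2, 3, 9, 8, 5 and 4 without Lin 3, Lin 4, plus 2, plus 4, plus A and plus B, and 8 with limma-voom. The matrix list shares Col1a1, Col1a2 and Sparc with that of osteoblasts.

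Of 14 genes that most fibroblasts share, 3 passed (background 5.00%), namely Fbln2, Fstl1 and Gsn, with a list median of -2.41. Fbln2, a fibulin, had 3 reads over the Lin libraries, and the ratio of plus over Lin was 358 (95% counting interval 122 to 1738). Gsn, gelsolin, fell by 1.32 (SE 0.32, edgeR adjusted p = 0.0460) and passed only without plus C. No gene of the 9 tested in the contractile and mural list passed (background 5.00%), though all 9 were below 0 (median -2.44). Acta2, smooth muscle actin, was at 0.119, 5.95 and 7.29 CPM in Lin and 3.70 to 58.5 CPM in plus (adjusted p = 0.213). Of 15 adhesion and matrix receptors 8 passed, all lower (background 5.00%), with a median of -3.40. Cdh2, N-cadherin, was at 0.239, 0.558 and 0.172 CPM in Lin and 18.1 to 83.4 CPM in plus (-7.12, SE 0.84), called in all 8 fits, and Cdh11, a cadherin of mesenchymal cells, fell by 6.01 (SE 0.84), called in 6 of 8. The 3 fibroblast calls were 0 without Lin 3 and 1 without plus B. The 8 receptor calls were 2, 1, 3, 4, 3 and 3 without Lin 3, Lin 4, plus 2, plus 4, plus A and plus B, and 0 with limma-voom.

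**Figure D3:**
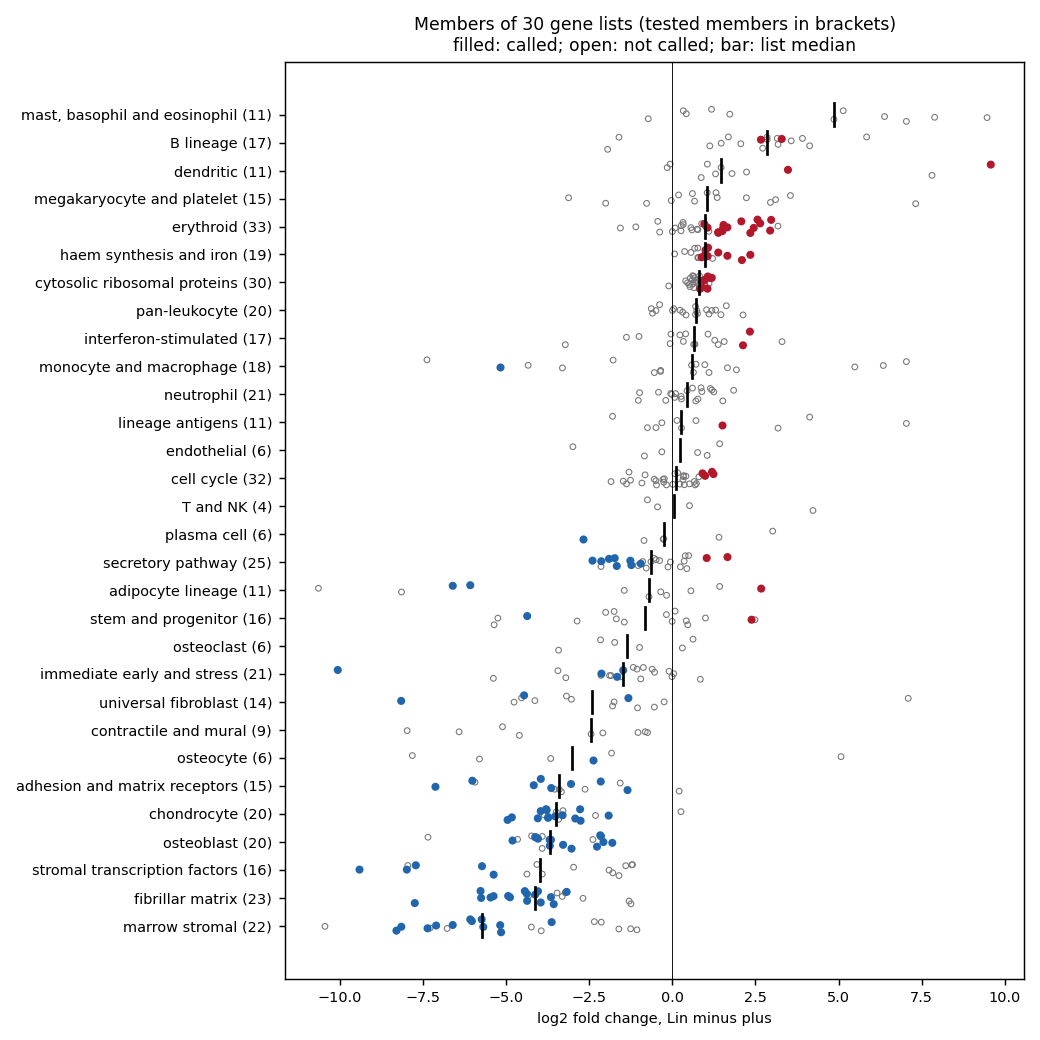
Log2 fold changes of Lin over plus for the tested members of 30 gene lists, 1 point a gene, filled where called and open where not, with a bar at each list's median. The marrow stromal list has the lowest median, -5.71, and the filled points of the erythroid and haem lists lie to the right of 0.

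Some of the called genes had no read in any Lin-named library. The 10 with the lowest fitted fold changes, all with reads in every plus-named library, were Sulf1, Mmp3, Dclk1, Ednra, C1s1, Dtx4, Lpar4, Lama4, Epha3 and Serpina3c. With 3 counts over the Lin group as the floor (0.0667 CPM), the plus level of Sulf1, an extracellular heparan sulfatase, was at least 419-fold higher, from 64.0, 10.7, 39.8, 15.8 and 6.32 CPM in plus 2, 4, A, B and C. Mmp3, a secreted metalloproteinase, was at least 311-fold, C1s1, a complement protease, at least 300-fold and Ednra, an endothelin receptor, at least 295-fold higher in plus. The bound was 284 for the kinase Dclk1 and 205 for the laminin chain Lama4. It was 170 for Dtx4, 162 for Serpina3c, 159 for the ephrin receptor Epha3 and 152 for the lysophosphatidic acid receptor Lpar4. Dtx4 and Lpar4 passed in 7 of 8 fits with 1 library left out, all but that without plus B, and Ednra, Lama4, Epha3 and Serpina3c in 2.

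Sema3d, a secreted guidance factor, Rbms3, Podnl1 and Gramd2 had 1 read each over the Lin libraries. The plus over Lin ratio of Sema3d was 1048 (95% counting interval 188 to 41419), with 42.9 and 54.2 CPM in plus 2 and plus 4 and 2.34 to 13.9 CPM in plus A, B and C. Sema3d was called in all 8 fits. Enpp2 (chromosome 15, 54838901 to 54952892, minus strand), the enzyme autotaxin that makes lysophosphatidic acid, was at 0.0597, 0.186 and 0.115 CPM in Lin and at 96.4, 90.8, 22.3, 37.4 and 36.3 CPM in plus 2, 4, A, B and C (-9.04, SE 0.58, edgeR adjusted p = 0.00436). Gfpt2, an enzyme of the hexosamine pathway, was at 0.172 to 0.279 CPM in Lin and 21.1 to 54.9 CPM in plus, and Pls3, the actin bundler plastin, at 0.287 to 0.651 against 53.5 to 135 CPM. Enpp2, Gfpt2 and Pls3 were picked after their p-values were seen, and all 3 were called in each of the 8 fits.

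On the other side of the comparison, red cell genes were higher in the Lin-named libraries. Of 33 erythroid genes tested, 15 passed, all higher (background 3.15%), with a median of 1.00, and 29 of the 33 were above 0. For 19 genes every Lin library lay above every plus library (background 11.9%). The summed erythroid level was 255260 to 596550 CPM in Lin and 40601 to 96184 CPM in plus. Red cell RNA was thus abundant in both groups. The count of 15 was 1, 1, 7, 3, 2 and 1 without Lin 3, Lin 4, Lin A, plus 2, plus 4 and plus B, and 18 without plus C.

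Hbb-bs (ENSMUSG00000052305, chromosome 7, 103826534 to 103828096, minus strand), an adult beta globin, was the most abundant gene of all 3 Lin-named libraries, at 228450, 340390 and 124880 CPM in Lin 3, Lin 4 and Lin A. In plus 2, 4, A, B and C Hbb-bs was at 15665, 36261, 14314, 30977 and 38454 CPM (log2 fold change 2.94, SE 0.51, edgeR adjusted p = 0.0237). Hbb-bt rose by 2.97 (SE 0.49), Hba-a1 by 2.56 (SE 0.47) and Hba-a2 by 2.64 (SE 0.49). Hbb-bs and Hbb-bt are near-identical copies, as are Hba-a1 and Hba-a2, so the split of reads within each pair is uncertain. The beta globins were called in 4 of 8 fits, those without Lin A, plus 2, plus A or plus C, and the alpha globins in 1. DESeq2 called neither Hbb-bs (adjusted p = 0.0722) nor Hba-a1 (adjusted p = 0.0603).

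Enzymes and carriers of haem synthesis moved with the globins. Of 19 genes of haem synthesis and iron, 9 passed, all higher (background 3.15%), and all 19 were above 0 (median 0.98). Alas2, the first enzyme of haem synthesis in red cells, was at 9216, 14987 and 9342 CPM in Lin and 1330 to 3367 CPM in plus (2.35, SE 0.40). Fech, which inserts the iron, rose by 1.38 (SE 0.24), and the mitochondrial carriers Slc25a37, which imports iron, and Slc25a39 by 1.66 (SE 0.35) and 2.09 (SE 0.35). Fth1, a ferritin chain (adjusted p = 0.0780), and Tfrc, the transferrin receptor (adjusted p = 0.161), did not pass. The 9 calls were 0, 0, 2, 1, 0, 4 and 0 without Lin 3, Lin 4, Lin A, plus 2, plus 4, plus A and plus B. Alas2, Fech, Slc25a37 and Tfrc are in both lists.

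Among membrane proteins of red cells, Rhd rose by 1.38 (SE 0.27), Rhag by 1.06 (SE 0.23) and Epb42 by 0.96 (SE 0.20). Tspo2, a mitochondrial and membrane protein of erythroblasts, rose by 1.54 (SE 0.26), Nfe2, a globin transcription factor, by 1.53 (SE 0.25), and Bpgm, which makes the haemoglobin ligand bisphosphoglycerate, by 2.08 (SE 0.40).

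Regulators and some membrane genes of the lineage did not pass. Gata1, the master factor of red cell genes, was at 534 to 627 CPM in Lin and 316 to 520 CPM in plus (0.59, SE 0.20, edgeR adjusted p = 0.106). Klf1 (0.75, SE 0.23, adjusted p = 0.0830), the anion exchanger Slc4a1 (1.10, SE 0.45, adjusted p = 0.159) and the erythropoietin receptor Epor (0.33, SE 0.28, adjusted p = 0.481) did not pass either. Slc4a1 overlapped, with 1849 CPM in plus C above the 1573 to 1766 CPM in Lin.

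Upstream stretches of the red cell genes that were called are shown because GATA factors, Gata1 among them, bind a short motif in such genes. The motif AGATAA was searched on both strands in the 250 bases upstream of each RefSeq start (GRCm38.p6). Of the 15 called erythroid genes 10 matched the RefSeq table, and 4 of these held it (40.0%), against 11.4% of all 27025 genes in the table. Of the 12 called marrow stromal genes 8 matched and none held it, but at the share of 11.4% so short a list would hold few. Erythroid genes that were not called were not counted, so the motif cannot be tied to being called. Each stretch below is 60 bases, read 5′ to 3′ on the gene's own strand, with the motif in capitals, as AGATAA or as its reverse complement TTATCT.
Alas2: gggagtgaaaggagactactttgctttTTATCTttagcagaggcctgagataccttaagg
Hbb-bs: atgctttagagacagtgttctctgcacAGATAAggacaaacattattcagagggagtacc
Rhd: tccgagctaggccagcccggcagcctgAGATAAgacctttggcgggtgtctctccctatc
Epb42: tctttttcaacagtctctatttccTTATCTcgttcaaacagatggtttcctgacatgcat
The Alas2 stretch is chrX:150547304-150547363 on the plus strand, and its motif begins 86 bases before the RefSeq start. The Hbb-bs stretch is chr7:103828106-103828165 on the minus strand, with the motif 210 bases before the start. The Rhd stretch is chr4:134864466-134864525 on the plus strand (43 bases before), and that of Epb42 chr2:121037068-121037127 on the minus strand (226 bases before). These matches describe letters in a window, and no binding was measured.

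**Figure D4:**
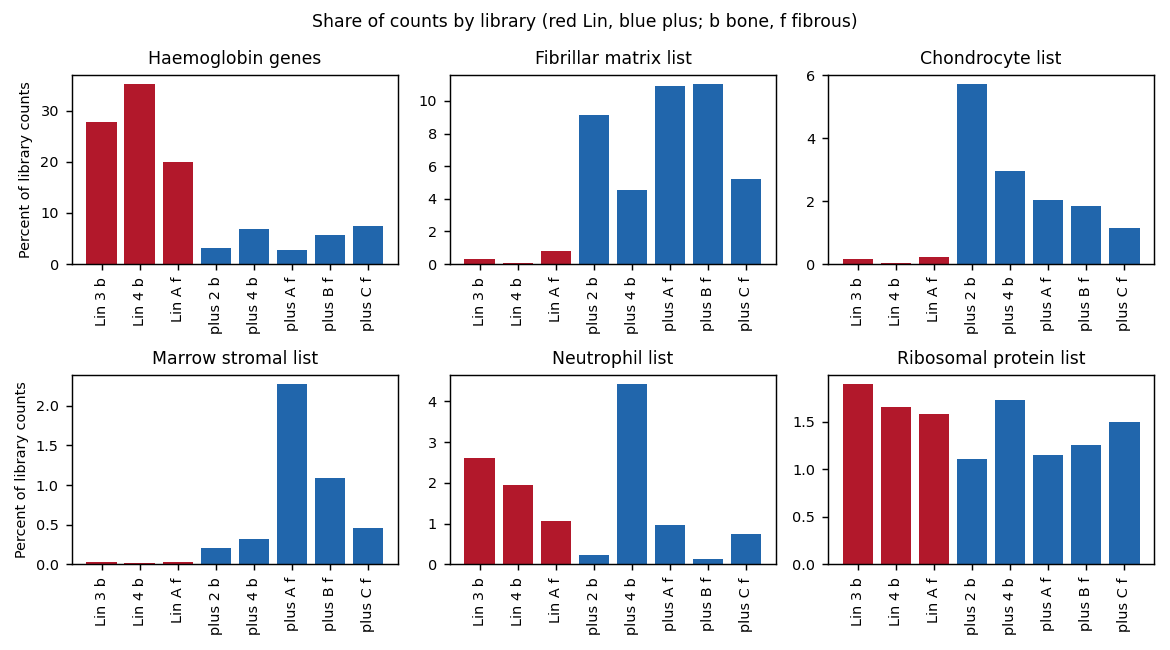
Percent of each library's counts taken by haemoglobin genes and by 5 gene lists, 1 bar a library, red for Lin and blue for plus, with b for bone and f for fibrous tissue. Haemoglobin is highest and the fibrillar matrix, chondrocyte and marrow stromal shares lowest in the 3 Lin-named libraries, while neutrophil and ribosomal shares overlap between the groups.

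The other higher genes with the largest changes included genes of B cells. Ly6d (chromosome 15, 74762056 to 74763620, minus strand), a surface protein of early B lineage cells that plasmacytoid dendritic cells also carry, was at 213, 48.0 and 67.3 CPM in Lin 3, Lin 4 and Lin A. In plus 2, 4, A, B and C Ly6d was at 10.6, 11.2, 7.65, 6.08 and 6.13 CPM (log2 fold change 3.48, SE 0.45, edgeR adjusted p = 0.0148), and it was called in all 8 fits. Cd79a and Cd79b, the signalling chains of the B cell receptor, rose by 2.67 (SE 0.60) and 3.29 (SE 0.68), in 0 and 1 of the 8 fits. Cd79b was at 271, 56.9 and 119 CPM in Lin and 4.46 to 31.4 CPM in plus. Cd72, a coreceptor of B cells, was at 27.1 to 38.7 CPM in Lin and 2.08 to 9.39 CPM in plus (2.86, SE 0.52), and Cd69, an activation marker of lymphocytes, rose by 2.64 (SE 0.61). Of 17 B lineage genes 2 passed, both higher (background 3.15%), while 15 were above 0 (median 2.85) and for 8 the Lin libraries lay above all plus libraries (background 11.9%). Of the 2, Cd79b was called without plus 4 and neither in any other fit with 1 library left out, and limma-voom called 0. The summed B lineage level overlapped, at 652.3 to 2046 CPM in Lin and 101 to 1382 CPM in plus. Ms4a1, the gene of CD20, was at 93.4, 34.5 and 39.8 CPM in Lin and at most 7.95 CPM in plus, with no read in plus 2 (adjusted p = 0.10015). Ighm, the heavy chain of IgM, reached 443 CPM in plus 4 against 259 to 650 CPM in Lin (adjusted p = 0.217).

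Genes of other blood cells mostly did not pass. In the neutrophil list 0 of 21 and in the pan-leukocyte list 0 of 20 genes passed. Of the megakaryocyte and platelet list 0 of 15 passed, and of the mast cell, basophil and eosinophil list 0 of 11. Over all genes tested 3.15% passed as higher and 5.00% as lower, so lists this short would hold few calls at that share. In the neutrophil, pan-leukocyte and megakaryocyte lists 15, 16 and 11 genes were above 0, with medians of 0.445, 0.70 and 1.05. DESeq2 called 0, 2 and 2 of their genes higher and 1, 0 and 1 lower. In the mast cell, basophil and eosinophil list 10 of the 11 genes were above 0, with a median of 4.86 (2.24 without the tissue term, 2.05 in bone alone). Its summed level was 30.1 to 328.1 CPM in Lin and 7.22 to 33.5 CPM in plus, and DESeq2 called 4 of its genes higher and limma-voom 1. The summed neutrophil level was 11089 to 32783 CPM in Lin and 1113 to 39035 CPM in plus, the highest in plus 4. S100a8, of which neutrophils make calprotectin, was at 13506, 11408 and 3098 CPM in Lin and 311, 8636, 1607, 175 and 1340 CPM in plus 2, 4, A, B and C (edgeR adjusted p = 0.357). Pf4, platelet factor 4, was at 44.8, 66.0 and 232 CPM in Lin and reached 158 CPM in plus B. Of 18 monocyte and macrophage genes, Vcam1 alone passed, lower in Lin (background 5.00%), and it is also in the marrow stromal list. Of these 18 genes 10 were above 0 (list median 0.607), and DESeq2 called 3 higher and 2 lower. Ptprc, the leukocyte antigen CD45, was at 47.5 CPM in Lin 3, had no read in Lin 4 and was at 8.03 CPM in Lin A, with 9.33 to 47.7 CPM in plus (adjusted p = 0.849). Itgam, the antigen CD11b, was at 5.21 to 8.36 CPM in Lin and 1.07 to 13.8 CPM in plus, and Pecam1, an antigen of endothelial cells, at no more than 8.59 CPM in any library. The T and NK list had 4 tested members of 21 and the endothelial list 6 of 21, and none of these passed.

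Single genes of the dendritic, stem and progenitor and plasma cell lists passed. Of 11 dendritic genes 2 passed, both higher (background 3.15%), namely Ly6d and Cd209a. Of 16 stem and progenitor genes 1 passed as higher, Cd48, and 1 as lower, Kit (backgrounds 3.15% and 5.00%). Of 6 plasma cell genes 1 passed, Sdc1, lower in Lin (background 5.00%). Cd209a, a lectin of dendritic cells, had no read in any plus library and 4.95, 7.53 and 2.70 CPM in Lin 3, Lin 4 and Lin A. With 3 counts over the plus group as the floor it was at least 221-fold higher in Lin (edgeR adjusted p = 0.0473), and it was called in none of the 8 fits with 1 library left out. Cd48, a surface protein of most blood cells, rose by 2.38 (SE 0.52), also in none of the 8 fits. Kit, the receptor for SCF on progenitors and mast cells, was at 0.716, 2.05 and 0.975 CPM in Lin and 38.8, 23.1, 13.1, 6.08 and 34.3 CPM in plus 2, 4, A, B and C (-4.36, SE 0.82, adjusted p = 0.0267), called without plus B and without plus C. Sdc1, a syndecan that plasma cells and stromal cells carry, was at 6.68 to 27.3 CPM in Lin and 41.3 to 228 CPM in plus (-2.69, SE 0.51). Of the 6 plasma cell genes 2 were above 0 (list median -0.264). Mzb1 of that list rose by 3.02, with every Lin library above every plus library, and did not pass (edgeR adjusted p = 0.194).

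Several higher genes with small p-values lie outside the lists and were picked after their p-values were seen. Ube2b (chromosome 11, 51985497 to 52000762, minus strand), a ubiquitin-conjugating enzyme, was at 615, 744 and 413 CPM in Lin and 122, 147, 102, 109 and 114 CPM in plus 2, 4, A, B and C (2.17, SE 0.16, edgeR adjusted p = 0.00456). Mkrn1, a ubiquitin ligase, rose by 2.22 (SE 0.31), Ypel5 by 1.95 (SE 0.19) and Adipor1, an adiponectin receptor, by 2.23 (SE 0.27). Malat1, an abundant nuclear non-coding RNA, was at 2494, 3182 and 1480 CPM in Lin and 336 to 516 CPM in plus (2.45, SE 0.29). Each of these 5 genes was called in all 8 fits. Among genes named for the size of their change, Cd36, a fatty acid receptor of adipocytes and of erythroid precursors, was at 944, 1096 and 712 CPM in Lin and 108 to 270.1 CPM in plus (2.67, SE 0.36), and Fam220a rose by 2.84 (SE 0.39), both in all 8 fits. Ube2l6, which conjugates the ubiquitin-like ISG15, rose by 2.61 (SE 0.39), Sowaha by 2.96 (SE 0.62) and Hist1h4c, a histone H4 gene, by 3.02 (SE 0.57). Cdkn1b, the cell cycle inhibitor p27, rose by 2.80 (SE 0.67) and Dusp2, a phosphatase of lymphocytes, by 3.27 (SE 0.78), each called in 1 of 8 fits.

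Lists of general cell functions moved partly. Of 30 cytosolic ribosomal protein genes 8 passed, all higher (background 3.15%), with 29 above 0 and a median of 0.79; Rps2 rose by 0.83 (SE 0.19) and Rpsa by 0.89 (SE 0.22, edgeR adjusted p = 0.0497). As a share of all counts, without TMM scaling, ribosomal genes overlapped between the groups, at 1.59% to 1.90% in Lin and 1.11% to 1.74% in plus. The TMM factors were 0.666 to 0.966 in Lin and 1.09 to 1.18 in plus, which raised Lin CPM relative to plus. Other small changes, those of cell cycle and red cell membrane genes among them, were not compared as shares of all counts. The 8 calls were 0 without Lin 3, Lin 4, Lin A, plus 4, plus A or plus B, 3 without plus 2 and 5 without plus C, and DESeq2 called 26. Of 17 interferon-stimulated genes 2 passed, both higher (background 3.15%). Rsad2, viperin, was at 1317, 1911 and 1251 CPM in Lin and 180 to 433 CPM in plus (2.33, SE 0.33), called in all 8 fits, and Isg15 rose by 2.13 (SE 0.36), in 4 of 8 fits.

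Of 32 cell cycle genes 4 passed, all higher (background 3.15%), Tyms (0.99, SE 0.21) and Pcna (0.91, SE 0.20) of DNA synthesis among them, while the proliferation antigen Mki67 was at 19.5 to 53.2 CPM in Lin and 70.0 to 266 CPM in plus (-1.84, SE 0.56, edgeR adjusted p = 0.0876). Only 18 of the 32 genes were above 0, with a list median of 0.122. The 4 calls were 0 without Lin 3, Lin 4, plus 2, plus 4 or plus B, 2 without Lin A, 1 without plus A and 7 without plus C. Lower cell cycle calls appeared with DESeq2 (8 higher, 5 lower), with the stricter filter (6 and 2), without the tissue term (7 and 2) and without Lin A (2 and 1). In the secretory pathway 8 of 25 genes fell (background 5.00%) and 2 rose (background 3.15%). The collagen chaperone Serpinh1 was at 179 to 457 CPM in Lin and 955 to 2521 CPM in plus (-2.40, SE 0.41), and P4hb, a subunit of the collagen prolyl hydroxylase, fell by 1.26 (SE 0.24). The 8 lower calls were 1, 0, 3, 5, 3 and 1 without Lin 3, Lin 4, plus 2, plus 4, plus A and plus B. Of 21 immediate early and stress genes 4 passed, all lower (background 5.00%). Jun fell by 1.66 (SE 0.35) and Fosl1, its partner in the AP-1 factor, had no read in Lin and was at least 87.2-fold higher in plus, from 3.55 to 9.03 CPM. The 4 calls were 0 without Lin 3, Lin 4, plus 2, plus A or plus B and 2 without plus 4 or plus C.

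The direction of the called genes was the same in bone and in fibrous tissue. In a fit with 4 groups, all 1097 called genes had the same sign in the bone contrast (2 Lin and 2 plus libraries) and in the fibrous contrast (1 Lin and 3 plus libraries); each contrast was part of the comparison that chose these genes. For Lepr the log2 fold change was -7.25 in bone and -9.33 in fibrous tissue, for Cxcl12 -6.89 and -8.04, and for Pdgfrb -6.92 and -7.26. For Col2a1 it was -5.16 and -2.84, for Alpl -4.17 and -3.11, for Hbb-bs 3.45 and 2.16 and for Ly6d 3.58 and 3.34. Bone had the change of larger size for 394 of the 424 higher and 434 of the 673 lower genes. The share over all genes tested was not counted, so a larger change in bone cannot be called particular to the called genes. These were chosen by a fit in which most Lin-named libraries are from bone. The bone contrast called 981 genes and the fibrous contrast 0 (smallest adjusted p = 0.227 by edgeR), where the single Lin library, Lin A, is assumed to vary like the other groups. The bone contrast takes its spread from all 8 libraries: a fit of the 4 bone libraries alone called 0 genes (edgeR, 2506 at an unadjusted p under 0.05), with an adjusted p of 0.129 for Lepr. The test of the difference between tissues called 0 genes by edgeR (1067 at an unadjusted p under 0.05, smallest adjusted p = 0.122), and 385 by DESeq2.

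**Figure D5:**
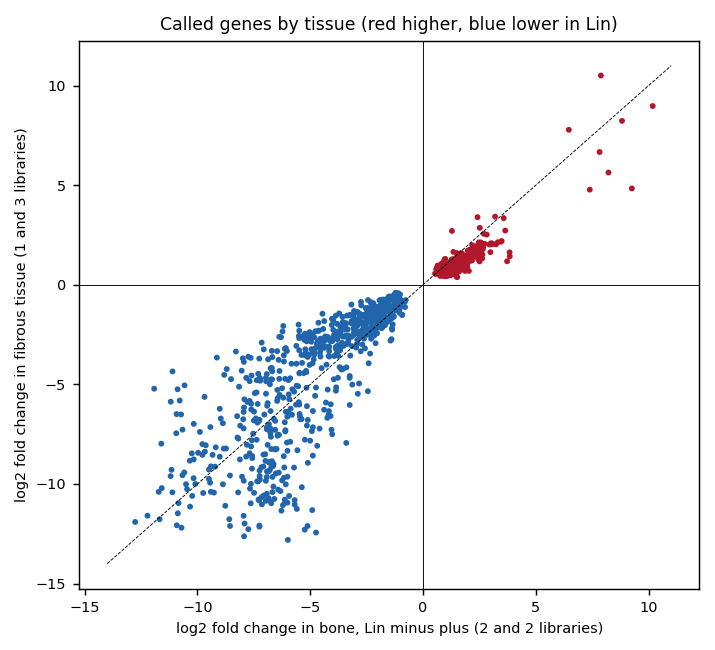
Log2 fold change of Lin over plus in fibrous tissue against that in bone for the 1097 called genes, red for higher and blue for lower in Lin, with a dashed line where both are equal. All points lie in the 2 quadrants of equal sign, and 394 of the 424 red points have the larger change in bone. The share with a larger change in bone over all genes tested was not counted.

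The left-out library D, from fibrous tissue and with neither token, resembled the Lin-named libraries in Lepr, at 0.442 CPM of its total counts, with 30.9 CPM of Cxcl12 and 11.9% haemoglobin. The Lepr level per total counts was 0.371 to 0.665 CPM in the Lin-named and 52.8 to 876.6 CPM in the plus-named libraries. In D the fibrillar matrix share was 2.50%, between those of the 2 groups. The 4 XY9274 libraries held Lepr at 2.61, 110, 81.1 and 72.4 CPM of total counts. D and these libraries entered no test.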

How the data were processed

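The deposited values are raw counts per gene in 1 matrix of 13 libraries, as whole numbers that the authors made from polyA RNA sequencing (TruSeq libraries, per the labels' protocols). The submitters' processing notes name edgeR and 2 builds (mm10, hg38) without saying their role. Not given in the sources used here: aligner, counter, annotation and strand setting. Coordinates are from GENCODE M21, promoter stretches from RefSeq. The 8 libraries were fitted with edgeR 4.0.16 (R 4.3.3): TMM factors, filterByExpr, robust quasi-likelihood F test, tissue and name token as terms, Benjamini-Hochberg adjustment over 13450 genes at 0.05. The SE was taken as log2 fold change over the square root of F. Alternatives were DESeq2 1.42.0, limma 3.58.1 (voom), other scalings and filters, and each library left out. The code was tested on simulated data whose libraries varied less than those here, so that check does not cover calls at the spread of these data. The named genes are Lepr and Cxcl12, the 15 largest called changes in each direction with a mean of 10 CPM or more in the higher group and 1 sign in both tissues, and up to 4 members of each of 30 lists by smallest p; genes said to be picked later, and Cd209a and other list members beyond these, fall outside the rule. Members and lists were chosen with earlier results of these data known. Fold bounds use a floor of 3 counts. Depth was 16162321 to 21097187 counts in Lin and 22409369 to 29600792 counts in plus. A few list members are not reported here.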

Additional observations from a re-analysis of the deposited data

Results flagged for a closer look

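A total of 7 values among the plus-named libraries lay far from the other 4 of their group (gap over range above 0.71, which chance gives in about 1 of 20 groups; 129 genes were looked at). Low values were Fbln7 in plus C at 13.1 CPM and P4hb in plus C at 646.7 CPM. High values were Cd36 in plus C at 270.1 CPM, Fn1 in plus 2 at 3484 CPM, Jun in plus 2 at 246 CPM, and Cd72 and Pecam1 in plus 4 at 9.39 and 6.84 CPM. Fbln7 and P4hb passed the comparison of Lin with plus only without plus C among the fits that left out 1 library. Fn1 was called without plus 2 as well as with it.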

How the results depend on the processing

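The number of genes called (1097, with 424 higher and 673 lower in Lin) was within 1.5 times with relative log expression factors (1129), with haemoglobin genes left out (1082), without a low-count filter (735) and with a stricter one (1451), but the higher genes were 245 without a filter. DESeq2 called 3493 (1322 higher, 2171 lower) and limma-voom 566 (333 higher, 233 lower). Without the tissue term 1580 were called, 729 of them higher. In bone alone 0 were called, 0 higher and 0 lower (edgeR, 2506 at an unadjusted p under 0.05), with 4 libraries. Leaving out 1 library gave 138 to 992 calls, 35 to 420 higher and 98 to 604 lower. The test of the difference between tissues gave 0 by edgeR and 385 by DESeq2. Lin 4 and plus 4, and Lin A and plus A, share a name token. With the token as a replicate block over these 4 libraries 15 genes were called, 9 higher and 6 lower. Residuals after the tissue and name terms correlated at -0.15 and -0.39 in these pairs, and Lin A gave similar values with plus B and plus C (-0.38 and -0.36). The fit makes residuals cancel within each tissue, and Lin A is the only Lin-named library of fibrous tissue. Its negative values are thus partly set by the design, and these correlations cannot decide whether a shared token marks a shared animal. Whether a shared token marks a shared animal is not given in the labels. The cause of these changes was not tested. With 1 library left out the log2 difference was -7.51 to -6.49 for Lepr, -7.93 to -7.02 for Cxcl12, 2.29 to 2.71 for the haemoglobin share and 0.929 to 2.23 for the neutrophil share, and that in genes detected -1755 to -1171. Among genes that did not pass, some signs turned. Pdgfra was 0.41 in bone alone, Itgam -0.43 with the block and -0.21 in bone alone, and Pecam1 0.90 without the tissue term and 0.35 in bone alone. With 1 library left out, Pdgfra ranged from -11.95 to 0.40, Ptprc from -2.16 to 0.025, Itgam from -0.21 to 1.13 and Pecam1 from -2.04 to 1.03.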
